A study of Mus musculus with 550 samples.

Results

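The 10 genes described here act in the canonical Wnt pathway: the receptor gene Fzd7, the beta-catenin gene Ctnnb1, the TCF/LEF transcription factor genes Lef1, Tcf7, Tcf7l1 and Tcf7l2, and the target and feedback genes Axin2, Sp5, Nkd1 and Dkk1. They were chosen by name, with earlier results of these data known, and all 10 were among the 55228 gene names of the count table. Their reads were followed in 486 of 550 single cells of embryoid bodies (EBs), balls of embryonic stem cells that begin to differentiate. EBs were grown for 3 or 9 days after withdrawal of LIF, the cytokine that holds stem cells undifferentiated, from E14 mouse embryonic stem cells of strain 129/Ola. The wild type (WT) was compared with 3AKO cells, which are Dnmt3a -/-, and 3BKO cells, which are Dnmt3b -/-, the question being how differentiation proceeds without 1 of the enzymes that set new DNA methylation. The labels give the same growth protocol for all groups. The study's methods describe independent clones of each mutant and pooled EBs, and the labels do not tell which cell came from which clone. Every genotype at every day, 6 groups in all, was therefore taken as 1 sample with no replicate, and no difference below carries a test. Each sample was split into library batch 1 and library batch 2 (plate columns 1 to 8 and 9 to 12), which gives 12 libraries as a check of direction.

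In the canonical pathway, a Wnt ligand binds a Frizzled receptor, the destruction complex stops degrading beta-catenin, and beta-catenin enters the nucleus, where it binds TCF/LEF proteins at target genes. Lef1 and Tcf7 proteins mostly act as activators with beta-catenin, Tcf7l1 mostly as a repressor, and Tcf7l2 as either. In the early embryo the pathway drives formation of the primitive streak, from which mesoderm and endoderm arise, and in embryonic stem cells Tcf7l1 restrains pluripotency genes such as Nanog. Axin2, Nkd1 and Dkk1 encode inhibitors that feed back on the pathway, and Sp5 encodes a zinc finger factor downstream of it.

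TCF/LEF proteins bind a short DNA core, written CTTTGAT here (ATCAAAG on the other strand), with CCTTTGAT as its longer form. In RefSeq promoter windows of 300 bases on GRCm38.p6 (250 before and 50 after a transcript start) the core was found in 1225 of 32851 windows, or 3.73%, and the longer form, which contains the core, in 353, or 1.07%. All 10 genes matched at least 1 window, 16 in all, and the core was found in 1 of these, that of Sp5, where it spans bases -104 to -98 from the start and belongs to the longer form. The 250 bases before the start of Sp5, the gene with this match, and of Axin2, the feedback gene most used as a readout of the pathway, are shown with the core in capitals. Both lie on the plus strand, Sp5 at chr2:70474673-70474922 and Axin2 at chr11:108920099-108920348.
Sp5: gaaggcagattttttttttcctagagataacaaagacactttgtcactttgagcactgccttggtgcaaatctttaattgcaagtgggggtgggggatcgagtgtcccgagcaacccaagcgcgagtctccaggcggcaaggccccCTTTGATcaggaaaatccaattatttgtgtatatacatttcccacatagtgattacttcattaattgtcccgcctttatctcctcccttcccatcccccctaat
Axin2: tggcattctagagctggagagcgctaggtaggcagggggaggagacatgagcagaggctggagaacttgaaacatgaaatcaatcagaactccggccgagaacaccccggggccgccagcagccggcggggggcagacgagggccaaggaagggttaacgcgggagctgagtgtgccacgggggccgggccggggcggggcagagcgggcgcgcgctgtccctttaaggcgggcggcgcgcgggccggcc
The Axin2 window holds no match to these letters in its printed bases. A match or its absence is a description of the letters in the window only.

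Kept cells had at least 50000 assigned reads and 2000 detected genes and at most 50% of reads from mitochondrial genes. They numbered 79, 83 and 80 at day 3 and 89, 88 and 67 at day 9 for WT, 3AKO and 3BKO, with 8071118 to 22867811 reads per library. At day 9 the filter kept 72.04% of 3BKO cells, against 97.8% of WT and 94.6% of 3AKO cells, and with no cell filter the day 9 differences of Lef1 and Tcf7l1 described next stayed past the 2-fold rule. Median reads per cell ranged from 211599 to 692321 over the libraries, with 3BKO day 9 batch 2 the deepest. The targeted genes were examined as a check of the labels. At day 9, Dnmt3a in WT, 3AKO and 3BKO stood at 165.5, 25.2 and 63.03 CPM (reads of the gene per 1000000 reads of the group), and Dnmt3b at 166.5, 252.0 and 16.4. At day 3, Dnmt3a was at 25.8 CPM in batch 1 but 334.5 in batch 2 of the library labelled 3AKO, and at 587 and 12.8 in those labelled 3BKO. Dnmt3b at day 3 was at 600.1 and 523 CPM in WT, 261 and 85.1 by the 3AKO label and 167 and 185 by the 3BKO label, so all 4 mutant libraries were below WT and none was as low as 3BKO at day 9. The well names place the batch 2 cells labelled 3AKO on plate 210 with the batch 1 cells labelled 3BKO, and the batch 2 cells labelled 3BKO on plate 211 with the batch 1 cells labelled 3AKO. The labels of the day 3 batch 2 mutant cells are thus in doubt, and day 3 mutants are named by label, with values by library for the results that rest on them. Each genotype had a plate of its own at day 9 (234 for WT, 236 for 3AKO and 238 for 3BKO), and WT had its own at day 3 (209), so genotype and plate cannot be told apart in these comparisons.

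Among the members read in 20% or more of the cells of a group, those past 2-fold in both batches at day 9 were Lef1 and Tcf7l1. They encode an activator and a repressor of Wnt targets. Nkd1 and Sp5, read in fewer cells, were also past 2-fold in both batches between the mutants, and Sp5 between 3AKO and WT. Lef1 was lower in 3BKO than in WT, and between the mutants Lef1 was lower and Tcf7l1 higher in 3BKO. Ctnnb1, whose protein carries the signal, was within 0.33 of WT on the log2 scale in both mutants. A gene was counted as different if 1 of the groups had reads of it in 20% or more of its cells, batch by batch, and if the log2 ratio on log2(CPM + 1) of summed reads was 1 or more (2-fold) in both batches with 1 sign. By this rule 0 of 10 members differed between 3AKO and WT, against 2.65% of the 9201 genes that passed detection (1.07% higher and 1.59% lower). Between 3BKO and WT, 1 of 10 (Lef1, lower) differed, against 7.84% of 9235 genes (2.86% higher and 4.98% lower). Between 3BKO and 3AKO, 2 of 10 (Lef1 lower, Tcf7l1 higher) differed, against 9.46% of 9152 genes (4.56% higher and 4.91% lower). The number of members that passed detection was 6 in each of the 3 comparisons, and the 4 target and feedback genes never did. Only these 6 could be counted as different, and the shares over all genes are likewise over genes that passed detection. Median log2 ratios are given for 3AKO against WT, 3BKO against WT and 3BKO against 3AKO, in this order. Over the 6 members that passed detection they were -0.15, 0.29 and 0.44, beside -0.10, -0.08 and 0.00 over all genes that passed it. Over all 10 members, with the 4 below detection included, they were -0.11, -0.43 and -0.48. The negative medians of the 10 members in 3BKO thus depend on the 4 genes below detection. Sp5 had no read in 3BKO. With Sp5 set to its bound against 3 counts, the 3BKO median of the 10 members was -0.58 against WT and -0.48 against 3AKO. The comparisons of 3AKO with WT and of 3BKO with WT share the WT cells. Their values are therefore set side by side and not as separate evidence. The log2 scale with 1 CPM added understates differences of genes at low CPM.

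**Figure D1:**
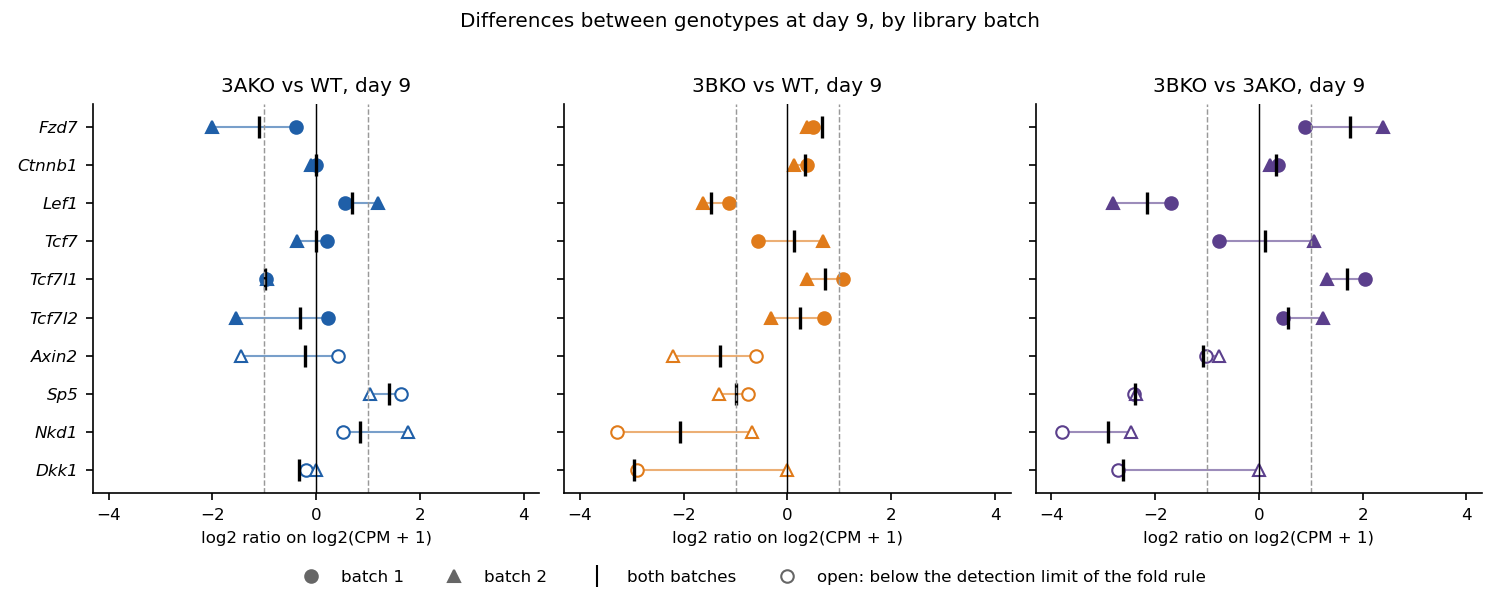
Log2 ratios on log2(CPM + 1) of the 10 genes between genotypes at day 9, with circles for batch 1, triangles for batch 2, black ticks for both batches summed, open symbols for genes below the detection limit of the fold rule and dashed lines at 2-fold. Lef1 lies beyond -1 in both batches in 3BKO against WT (-1.13 and -1.62) and against 3AKO (-1.70 and -2.82), and Tcf7l1 lies above 1 in both batches in 3BKO against 3AKO (2.04 and 1.31).

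Levels between genes were compared per kilobase of exon (GENCODE vM21). Ctnnb1 was the most abundant member in all 6 groups, at 74.9 to 102 CPM per kilobase. No other member exceeded 12.8 in a group, the value of Tcf7 in WT day 3. At day 9 the order in WT was Ctnnb1, Tcf7 (7.34), Dkk1 (5.62), Tcf7l1 (5.28), Fzd7 (3.92), Lef1 (2.74), Nkd1 (1.49), Tcf7l2 (1.34), Axin2 (0.542) and Sp5 (0.465). The place of Dkk1 rests on 2 cells. In 3AKO day 9 the order after Tcf7 (7.34) was Lef1 (4.47), Dkk1 (4.37), Nkd1 (2.86), Tcf7l1 (2.55) and Sp5 (2.02), whereas in 3BKO day 9 Tcf7l1 came second (8.83), then Tcf7 (8.04) and Fzd7 (6.34), with Lef1 at 0.909. In this WT order the batches of each pair of neighbours overlapped, other than Ctnnb1 with Tcf7 and Tcf7l2 with Axin2, so the order between overlapping neighbours is not firm.

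**Figure D2:**
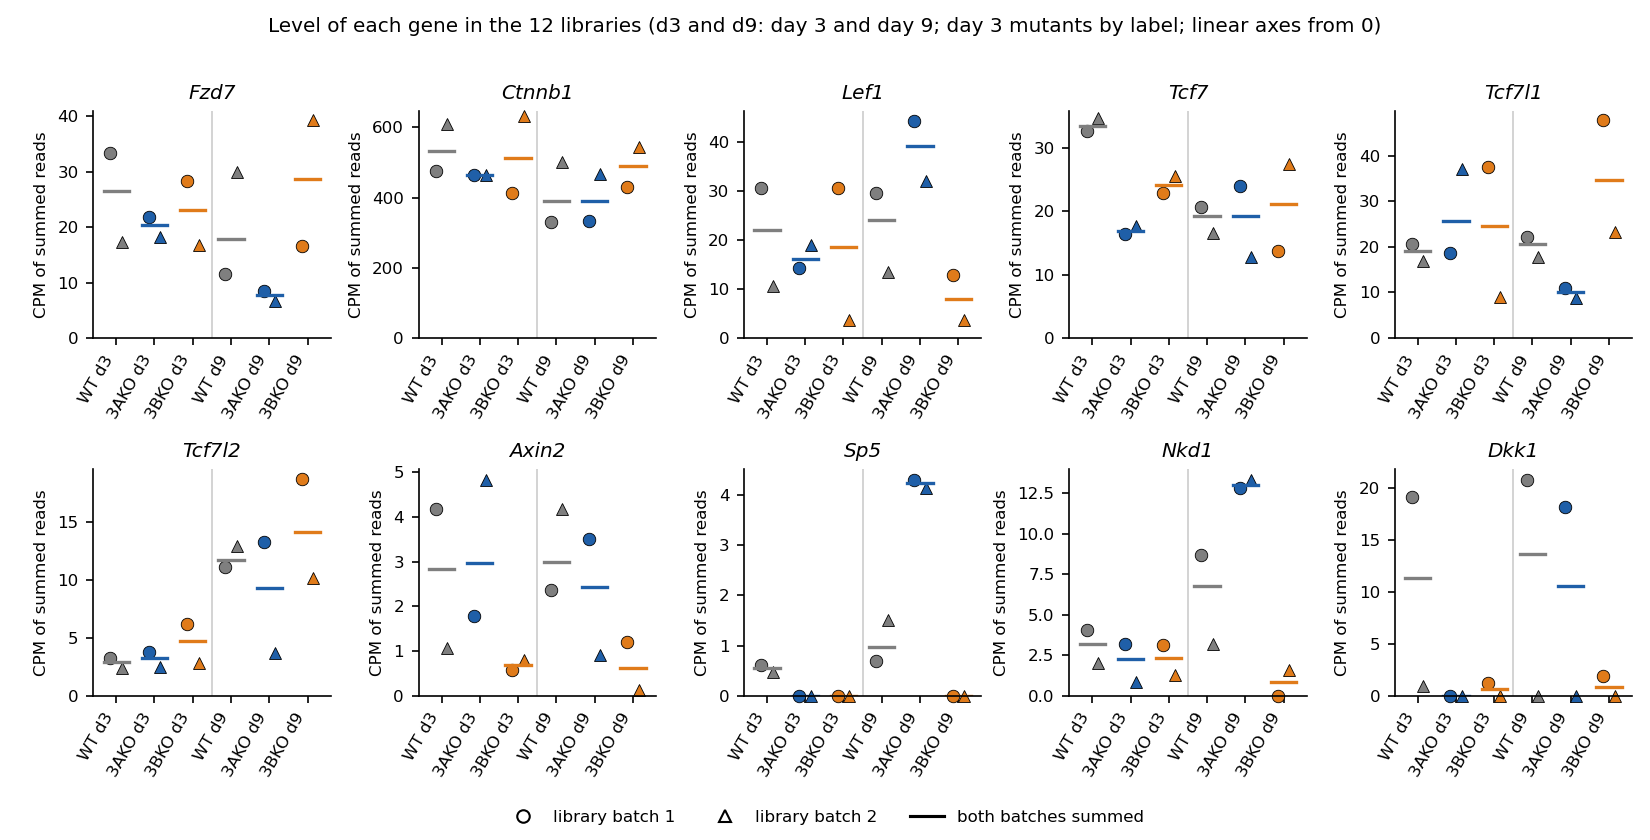
CPM of summed reads (linear vertical axes from 0, scaled per gene) of each gene in the 12 libraries, with circles for batch 1, triangles for batch 2 and bars for both batches summed, mutants at day 3 by label. Lef1 and Nkd1 are lowest in 3BKO and highest in 3AKO among the day 9 groups, Tcf7l1 shows the reverse order, and Sp5 has no read in 3BKO day 9 or in either mutant label at day 3.

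Fzd7 (chr1:59482424-59486955, plus strand) encodes a Frizzled receptor of pluripotent cells. At day 9 its level was 11.5 and 29.9 CPM in WT batches 1 and 2, 8.53 and 6.66 in 3AKO, and 16.5 and 39.3 in 3BKO. 3AKO was the lowest and 3BKO the highest in each batch, but the WT batch 2 value lay between the 3BKO batches. Against WT, 3AKO had a log2 ratio of -1.10 with the batches summed, and it was -0.39 in batch 1 and -2.01 in batch 2, so the rule was not met. That of 3BKO to WT was 0.66 (0.49 and 0.38), and that of 3BKO to 3AKO was 1.76 (0.88 and 2.39). In the 3BKO batch 2 library 37.5% of the Fzd7 reads came from 1 cell. After each cell was thinned to 50000 reads, a read of Fzd7 was found in 28.1% of WT cells, 19.3% of 3AKO cells and 40.3% of 3BKO cells (17 of 88 against 27 of 67 in the mutants), a difference of 21 points between 3BKO and 3AKO (5.6 to 35.8). Shares have exact (Clopper-Pearson) 95% binomial intervals. Reads of this protocol carry no molecular identifiers and are not independent molecules, so all intervals and limits given cover counting error alone.

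Ctnnb1 (chr9:120929216-120960507, plus strand) was read in 479 of 486 cells. At day 9 it stood at 331 and 500.1 CPM in WT, 333 and 469 in 3AKO, and 429 and 544 in 3BKO. The gap between the batches of each genotype was larger than the gap between genotypes, batch 2 being higher in all 3. The log2 ratio to WT was 0.00 in 3AKO (0.01 and -0.09) and 0.33 in 3BKO (0.37 and 0.12). The WT median over cells was 266.8 CPM in batch 1 and 442.6 in batch 2. The WT median of the same batch was exceeded by 46 of 67 cells in 3BKO (68.7%, 56.2 to 79.4%) and 43 of 88 in 3AKO (48.9%). The gene shares exon bases with Ulk4 on the opposite strand, and Nextera XT libraries do not mark the strand, so reads from the shared bases cannot be told apart. The same holds for Lef1 (Gm43352), Tcf7l1 (Gm15401) and Axin2 (Gm11670).

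Lef1 (chr3:131110471-131224356, plus strand) showed the widest difference between the mutants among the members that passed detection. Its level at day 9 was 29.6 and 13.5 CPM in WT, 44.4 and 32.1 in 3AKO, and 13 and 3.69 in 3BKO. In each batch 3AKO was highest and 3BKO lowest, while the values of the WT and 3BKO batches came close (13.5 against 13). With the batches summed, WT had 24.1 CPM (22.5 to 25.8), 3AKO 39.3 (36.8 to 41.9) and 3BKO 7.99 (7.02 to 9.06). The log2 ratio to WT was 0.68 in 3AKO (0.57 and 1.19) and -1.48 in 3BKO (-1.13 and -1.62), and that of 3BKO to 3AKO was -2.16.

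Fewer 3BKO cells held any Lef1 read. The number was 6 of 67 in 3BKO (9.0%, 3.4 to 18.5%), 32 of 89 in WT (36%) and 43 of 88 in 3AKO (48.9%), and after thinning 6, 25 and 35. The thinned share was 19.1 points lower in 3BKO than in WT (6.0 to 31.1 points lower). It was lower in both batches, at 10.9% against 30% in batch 1 and 4.8% against 24.1% in batch 2. Among the 6 positive 3BKO cells the highest reached 157.7 CPM, against 305.2 in WT and 449.8 in 3AKO, and in batch 2 all 60 reads came from a single cell. The difference from WT met the rule in 11 of 15 alternative settings, with a log2 ratio from -2.06 to -0.92, and failed it under the stricter cell filter, thinning before summing, a pseudocount of 10 CPM and detection in 40% of cells. The difference from 3AKO met it in all 15 (-2.82 to -1.45). Some of these settings could not fail. A ratio past the rule also meets it in each batch alone, with detection in 10% or no share of cells and with a pseudocount of 0.1 CPM. Only the other settings bear on how firm the ratio is.

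**Figure D3:**
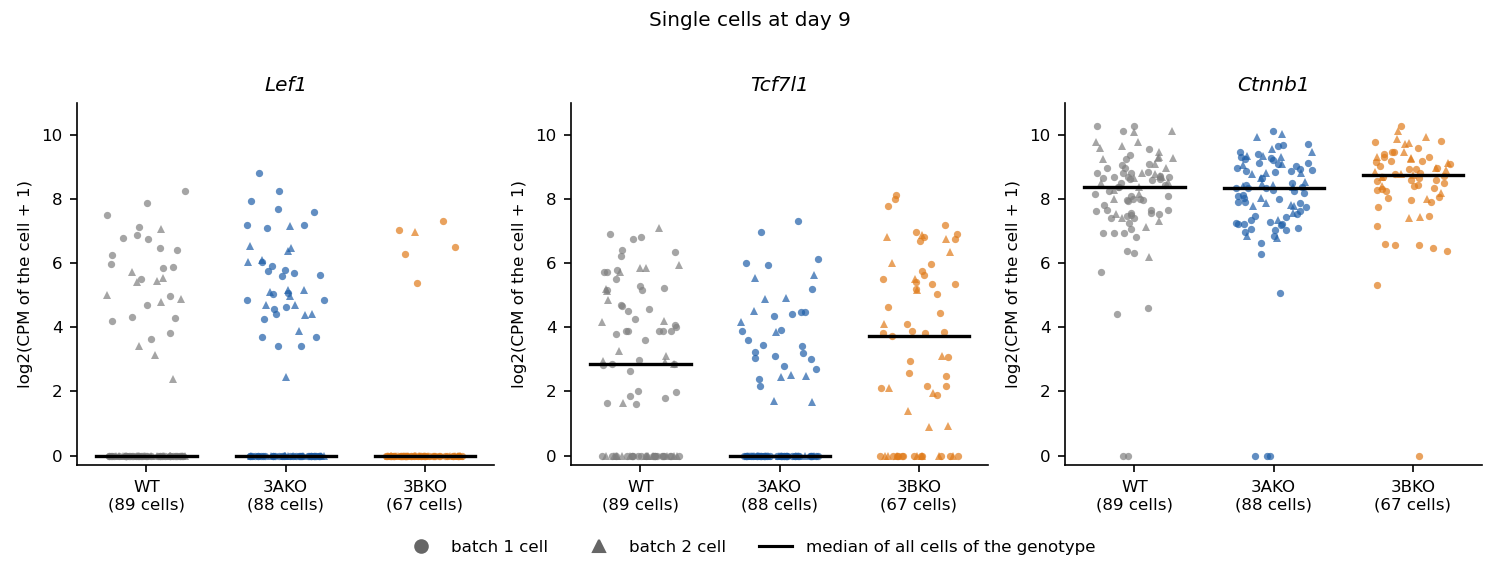
Log2(CPM + 1) of Lef1, Tcf7l1 and Ctnnb1 in each kept cell at day 9, with circles for batch 1 cells, triangles for batch 2 cells and black bars for the median of the genotype. Lef1 is above 0 in 6 of 67 3BKO cells against 32 of 89 WT and 43 of 88 3AKO cells, Tcf7l1 in 48, 55 and 36, and Ctnnb1 in nearly every cell.

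Tcf7l1 (chr6:72626378-72789254, minus strand) ran the other way. It stood at 22.3 and 17.7 CPM in WT, 10.9 and 8.78 in 3AKO, and 47.9 and 23.3 in 3BKO at day 9. The 3 genotypes did not overlap across batches, with 3AKO lowest and 3BKO highest. The log2 ratio to WT was -0.98 in 3AKO (-0.97 and -0.94), just inside the 2-fold line in both batches, and 0.72 in 3BKO (1.07 and 0.37). Without the cell that held most reads of the gene in each library, the 3AKO ratio was -1.21 and met the rule. The ratio of 3BKO to 3AKO was 1.69 (2.04 and 1.31), and it met the rule in 14 of 15 alternatives (1.16 to 2.04), the exception being a pseudocount of 10 CPM. As for Lef1, some of these alternatives could not fail.

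The share of cells with a read had the same order. Tcf7l1 reads were found in 34 of 89 WT cells (38.2%), 20 of 88 3AKO cells (22.7%) and 28 of 67 3BKO cells (41.8%) at 50000 reads per cell. The 3BKO share exceeded that of 3AKO by 19.1 points (3.4 to 34.2) and that of WT by less than its counting error. Unthinned, the WT median over cells was 6.27 CPM in batch 1 and 6.20 in batch 2. The WT median of the same batch was exceeded by 37 of 67 cells in 3BKO (55.2%) and 27 of 88 in 3AKO (30.7%). The most concentrated day 9 library was 3AKO batch 2, in which 1 cell held 34.5% of the reads.

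Tcf7 (chr11:52252371-52283014, minus strand) and Tcf7l2 (chr19:55741820-55933654, plus strand) did not separate the genotypes at day 9. Tcf7 had 20.6 and 16.6 CPM in WT, 23.9 and 12.7 in 3AKO, and 13.7 and 27.5 in 3BKO. The order of the genotypes reversed between batches, and in WT batch 2 a single cell held 65.3% of the reads. Tcf7l2 had 11.1 and 12.9 CPM in WT, 13.3 and 3.74 in 3AKO, and 18.7 and 10.2 in 3BKO, and its batches likewise overlapped between genotypes. Tcf7 was seen in 17.9% of 3BKO cells against 33% of 3AKO cells after thinning, a difference of -15.0 points (-28.7 to -0.2) that without thinning was -14 (-29.0 to 2.0).

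The target and feedback genes were read in few cells, 64 of 486 for Axin2, 51 for Nkd1, 12 for Sp5 and 11 for Dkk1, and none reached detection in 20% of cells. Axin2 (chr11:108920349-108950783, plus strand), a scaffold of the destruction complex induced by the pathway itself, had 2.36 and 4.18 CPM in WT, 3.51 and 0.909 in 3AKO, and 1.21 and 0.123 in 3BKO at day 9. The 3BKO value was the lowest in both batches, from 17 and 2 reads in 5 and 1 cells. Nkd1 (chr8:88521354-88594884, plus strand), an antagonist of Dishevelled, had 8.70 and 3.18 CPM in WT, 12.8 and 13.3 in 3AKO, and 0 and 1.6 in 3BKO. All 26 of its 3BKO reads came from 1 cell of batch 2, and 58.6% of its WT reads also came from 1 cell. Its log2 ratio of 3BKO to 3AKO was -2.92 (-3.79 and -2.46).

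Sp5 (chr2:70474923-70477729, plus strand) had 0.70 and 1.51 CPM in WT and 4.3 and 4.14 in 3AKO, and no read in either 3BKO library at day 9. Against a floor of 3 counts over the group, the bound was 9.86-fold lower in 3BKO than in WT and 42.7-fold lower than in 3AKO. It covers counting error of reads alone, and the reads came from 4 WT cells and 5 3AKO cells. The unthinned share of cells in 3BKO differed from WT by -4.5 points (-11.1 to 1.8) and from 3AKO by -5.7 (-12.8 to 0.9). With 0 of 67 cells, the 3BKO data allow a share of up to 4.48% of cells with a read by the floor of 3 counts, and up to 5.36% by the exact interval. Dkk1 (chr19:30545863-30549665, minus strand), a secreted inhibitor of the Wnt co-receptors, was read in 2 WT, 4 3AKO and 1 3BKO cells at day 9, all in batch 1, at 20.8, 18.1 and 1.92 CPM. A single WT cell reached 826 CPM and held 66.9% of the WT reads.

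Cells with at least 1 of Axin2, Sp5, Nkd1 and Dkk1 were then counted at day 9 after thinning. WT had 15 of 89 such cells (16.9%, 9.75 to 26.3%), 3AKO 19 of 88 (21.6%, 13.5 to 31.6%) and 3BKO 2 of 67 (2.99%, 0.364 to 10.4%). The 3BKO share was lowest in both batches, at 4.35% against 16.7% in WT in batch 1 and 0 of 21 cells against 17.2% in batch 2. Unthinned, the counts were 20, 23 and 7 cells (22.5%, 26.1% and 10.4%). At least 1 of the 4 TCF/LEF genes was read in 69.7%, 72.7% and 68.7% of cells, so that share was close in the 3 genotypes. The median number of the 10 genes read per thinned cell was 2 in WT, 3 in 3AKO and 2 in 3BKO.

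**Figure D4:**
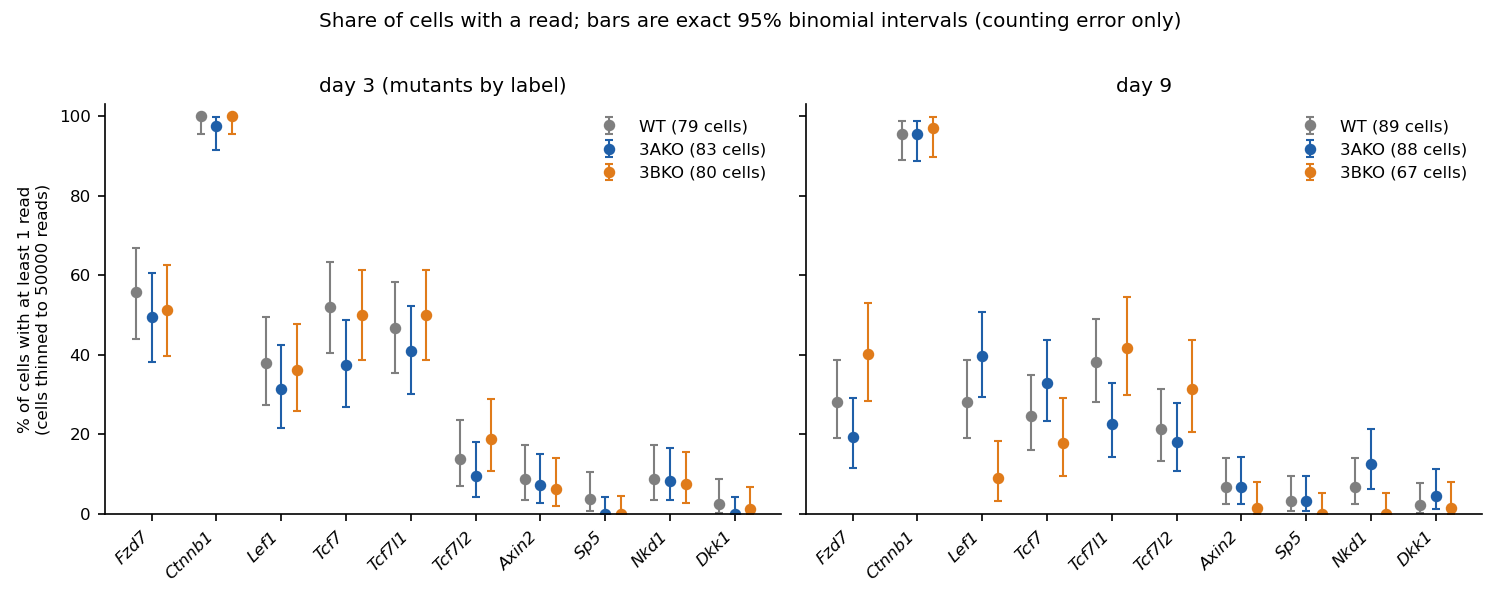
Percent of cells with at least 1 read of each gene after thinning to 50000 reads, at day 3 (left, mutants by label, both batches pooled) and day 9 (right), with exact 95% binomial intervals for counting error. At day 9 the Lef1 interval of 3BKO (3.4 to 18.5%) lies below those of WT (19.1 to 38.6%) and 3AKO (29.5 to 50.8%), while Ctnnb1 is above 95% in every group.

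Markers of cell types were counted in the same cells. The summed level of 15 meso-endoderm (ME) markers at day 9 was 67.3 and 50.2 CPM in WT, 55.8 and 130.9 in 3AKO, and 17.8 and 44.9 in 3BKO, with 7 markers (T, Mixl1, Mesp1, Foxa2, Cer1, Hand1 and Lhx1) at 0 in 3BKO, 5 in 3AKO (Kdr, Hand1, Msgn1, Tbx6 and Lhx1) and Mixl1 in WT. A cell was called ME positive if 3 or more of these markers had 2 or more reads, which held for 3 WT, 3 3AKO and 0 3BKO cells. Of these, 1 WT and 2 3AKO cells held a read of a target or feedback gene. Among the remaining cells such a read was found in 19 WT, 21 3AKO and 7 3BKO cells. With at most 3 ME positive cells in a genotype, most cells with such a read had to lie outside them. These counts therefore say nothing on a link between the 2. For 12 ectoderm markers, 47 WT, 38 3AKO and 12 3BKO cells were positive by the same rule (52.8%, 43.2% and 17.9%), while the summed levels were close (273, 309 and 263 CPM), and Sox1, Nes, Fabp7 and Zic1 were at 0 in 3BKO. For 8 trophoblast markers 2, 1 and 11 cells were positive, at 71.2, 104.9 and 146.6 CPM, with Cdx2 at 0 in all groups and Eomes and Hand1 shared with the ME list. Epiblast markers (12, Pou5f1 and Nanog among them) were positive in 94.4%, 90.9% and 100% of cells. The part of these markers in the differences of the Wnt genes was not tested.

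In WT EBs, Tcf7l2 was higher at day 9 than at day 3, and Tcf7 and Fzd7 were read in fewer cells. Tcf7l2 was at 3.29 and 2.36 CPM at day 3 and 11.1 and 12.9 at day 9, and the days did not overlap. Its log2 ratio was 1.71 (1.5 and 2.05), the only 1 of 10 members (6 of them past detection) that met the rule, against 7.44% of 10162 genes (5.25% higher and 2.19% lower). The share of cells with a read was 13.9% at day 3 and 21.3% at day 9 after thinning, a difference of 7.4 points within counting error (-5.1 to 19.5). The highest single cell was at 37.6 CPM at day 3 and 205.0 at day 9. At day 9, 1 cell held 29.1% of the Tcf7l2 reads in batch 1 and 40.3% in batch 2. The rule was met in 12 of 15 alternatives (0.75 to 2.05), some of which could not fail, as for Lef1. It was not met when cells were thinned before summing, with a pseudocount of 10 CPM or with detection in 40% of cells. Tcf7 was at 32.6 and 34.7 CPM at day 3 and 20.6 and 16.6 at day 9, a log2 ratio of -0.77 (-0.64 and -1.02), and its thinned share of cells was 27.2 points lower (11.7 to 41.4). The share for Fzd7 was 27.6 points lower (11.9 to 42), but its level went from 33.4 to 11.5 CPM in batch 1 and from 17.2 to 29.9 in batch 2. WT cells had a median of 7267 genes with a read at day 3 and 5652 at day 9, unthinned. The lower shares of Tcf7 and Fzd7 were not set against those of all genes.

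Ctnnb1 in WT was lower at day 9 in both batches (475 and 608 against 331 and 500.1 CPM, a log2 ratio of -0.45), and Lef1 and Tcf7l1 stayed within 0.12 of day 3. The median log2 ratio of all genes between the days was 0.19 in CPM and 0.03 with TMM factors, so ratios between days include a shift of about this size. With CPM 533 genes were called higher and 223 lower in WT, and with TMM factors 308 and 387.

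At day 3 the levels of the WT libraries were 30.7 and 10.6 CPM for Lef1, 20.6 and 17 for Tcf7l1, 32.6 and 34.7 for Tcf7 and 33.4 and 17.2 for Fzd7. By label, 0 of 10 members met the rule against WT in 3AKO (1.22% of 10362 genes, 0.869% higher and 0.347% lower) and 0 in 3BKO (1.08% of 10236 genes, 0.664% higher and 0.42% lower). Under each label 6 of the 10 members passed detection. For Lef1 and Tcf7l1 the batches of a label gave unlike ratios to WT, -1.05 and 0.78 for Lef1 and -0.13 and 1.08 for Tcf7l1 by the 3AKO label, and 0.00 and -1.32, and 0.83 and -0.85, by the 3BKO label. Lef1 was at 14.3 CPM in batch 1 and 19 in batch 2 labelled 3AKO, and at 30.8 and 3.65 in those labelled 3BKO. Tcf7l1 was at 18.7 and 37 by the 3AKO label and at 37.5 and 9.02 by the 3BKO label.

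The same libraries were also grouped by plate. On plate 211, where Dnmt3a was low in both batches, Lef1 was at 14.3 and 3.65 CPM and Tcf7l1 at 18.7 and 9.02, and on plate 210 Lef1 was at 30.8 and 19 and Tcf7l1 at 37.5 and 37. Plate 211 against WT gave a log2 ratio for Lef1 of -1.11 (-1.05 and -1.32), the 1 member past the rule under that grouping, against 3.03% of 10408 genes. Plate 210 gave 0.93 for Tcf7l1 (0.83 and 1.08), with 0 members past the rule against 1.73% of 10290 genes, and 1 cell held 44.7% of the Tcf7l1 reads in the batch 1 library and 63.2% in the batch 2 library. Tcf7 was lower than WT in all 4 mutant libraries, at 16.4, 17.7, 22.9 and 25.6 CPM, with log2 ratios of -0.95 and -0.93 by batch for the 3AKO label and -0.49 and -0.42 for the 3BKO label. Sp5 was read in 3 WT cells and in no cell of either mutant label, and Dkk1 in 3 WT cells and 1 cell labelled 3BKO, with 91.5% of its WT reads in a single cell.

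Between day 3 and day 9 by label, Fzd7 was lower in 3AKO at day 9 (21.8 and 18.2 against 8.53 and 6.66 CPM, log2 ratio -1.29), the 1 member past the rule against 5.68% of 9945 genes (2.57% higher and 3.11% lower). It stayed past the rule with day 3 grouped by plate (-1.24), where Lef1 was past it too (1.92), against 7.42% of 10036 genes. In 3BKO, Tcf7l2 was higher at day 9 (6.22 and 2.84 against 18.7 and 10.2 CPM, log2 ratio 1.41), the 1 member past the rule against 12.4% of 10042 genes (6.77% higher and 5.59% lower). It stayed so by plate (1.40), and Lef1 was then past it as well (-1.59), against 13.3% of 10081 genes. Tcf7 was read in 17.9% of 3BKO cells at day 9 against 48.1% and 53.8% in the day 3 libraries labelled 3BKO. This too was not set against the shares of all genes. With CPM, 256 genes were called higher and 309 lower in 3AKO and 680 and 561 in 3BKO, and with TMM factors 193 and 411, and 521 and 728.

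A wider set of 109 genes of the pathway, 108 of them in the table, was listed by role. Between 3AKO and WT at day 9, 50 passed detection, 2 met the rule upwards and 0 downwards, beside 1.07% and 1.59% of all genes. The 2 pathway genes were the secreted inhibitor Sfrp2 (112.0 against 30.1 CPM, log2 ratio 1.86) and the receptor Ror2 (14 against 4.11, 1.56). Between 3BKO and WT, 42 passed detection, 2 met the rule upwards and 5 downwards, beside 2.86% and 4.98% of all genes. Between the mutants, 47 passed, with 3 higher and 7 lower in 3BKO, beside 4.56% and 4.91% of all genes. The genes that pass detection include those that pass only through the group where they are high, so these counts are given beside the shares over all genes and read no further.

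Among 17 receptors and co-receptors, the 3 genotypes had 20.4, 15.6 and 0.33 CPM of Fzd2 in the order WT, 3AKO and 3BKO (log2 ratio of 3BKO to WT -4.01), and of Fzd3, a Frizzled of neural tissue, 25.5, 21.4 and 8.25 (-1.52). Single cells held 58.8% of the WT and 65.5% of the 3AKO reads of Fzd2 in batch 2. The most abundant receptor gene, Lgr4, was at 32.2 CPM in WT and did not meet the rule. Among 20 inhibitors, Sfrp2 was at 4.95 CPM in 3BKO (-2.39) and Sfrp4 at 3.93 against 18.2 in WT (-1.96). Sfrp1, the most abundant of them, had 40.8 CPM in WT and did not meet the rule. Znrf3, a feedback inhibitor that removes Frizzled receptors, was at 20.6 CPM in 3AKO and 3.27 in 3BKO (-2.34).

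Of 11 further targets, Sp8, a relative of Sp5, was at 10.7 CPM in WT and 0.13 in 3BKO (-3.37), from 4 reads in 3BKO. Fst, which encodes the activin inhibitor follistatin, had 28.98, 75.5 and 1.16 CPM in WT, 3AKO and 3BKO (-5.15 between the mutants), and 1 cell held 35.1% to 72.3% of its reads in each WT and 3AKO library. The most abundant of the list was the cyclin gene Ccnd1, at 107 CPM in WT and not past the rule. In this list 6 passed detection between the mutants, 0 were higher and 2 lower, beside 4.56% and 4.91% of all genes.

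All 8 genes listed as held down by Tcf7l1 passed detection. By the rule 1 was higher and 0 lower in 3BKO than in WT, beside 2.86% and 4.98% of all genes. Against 3AKO, 2 were higher and 0 lower in 3BKO, beside 4.56% and 4.91% of all genes. A part of Tcf7l1 in their levels was not tested. Tbx3, a T-box factor gene, was at 25.3, 28.4 and 147.2 CPM in WT, 3AKO and 3BKO (log2 ratio 2.49 to WT and 2.33 to 3AKO), with reads in 23.6%, 30.7% and 76.1% of cells. Nanog, the most abundant, was at 561, 438 and 1004 CPM (1.20 to 3AKO). The median log2 ratio of the 8 genes was 0.79 for 3BKO against WT, beside -0.08 over all genes tested. Nanog is also an epiblast marker, and epiblast markers as a list summed to 7877, 7808 and 11280 CPM.

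Other roles showed few or no genes past the rule. The shares over all genes at day 9 were 2.65% for 3AKO against WT, 7.84% for 3BKO against WT and 9.46% between the mutants. Of 25 ligand and secretion genes 2 passed detection in each day 9 comparison, Wls and Porcn, and 0 met the rule. Wls, which carries Wnt proteins to the cell surface, was the most abundant at 81.8 CPM in WT day 9 and 9.49 in WT day 3 (log2 ratio 2.98). Of 14 destruction complex and Dishevelled genes 12 passed detection and 0 met the rule against WT, with Csnk1a1 the most abundant (362 CPM), and Tnks alone met it between the mutants (41.7 CPM in 3BKO and 15.8 in 3AKO, 1.34). Of 14 nuclear partners, Tle3, a co-repressor of TCF/LEF proteins, was higher in 3BKO than in WT (14.9 against 4.71 CPM, 1.48), while the most abundant, Hdac1, at 231 CPM in WT, did not meet the rule.

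**Figure D5:**
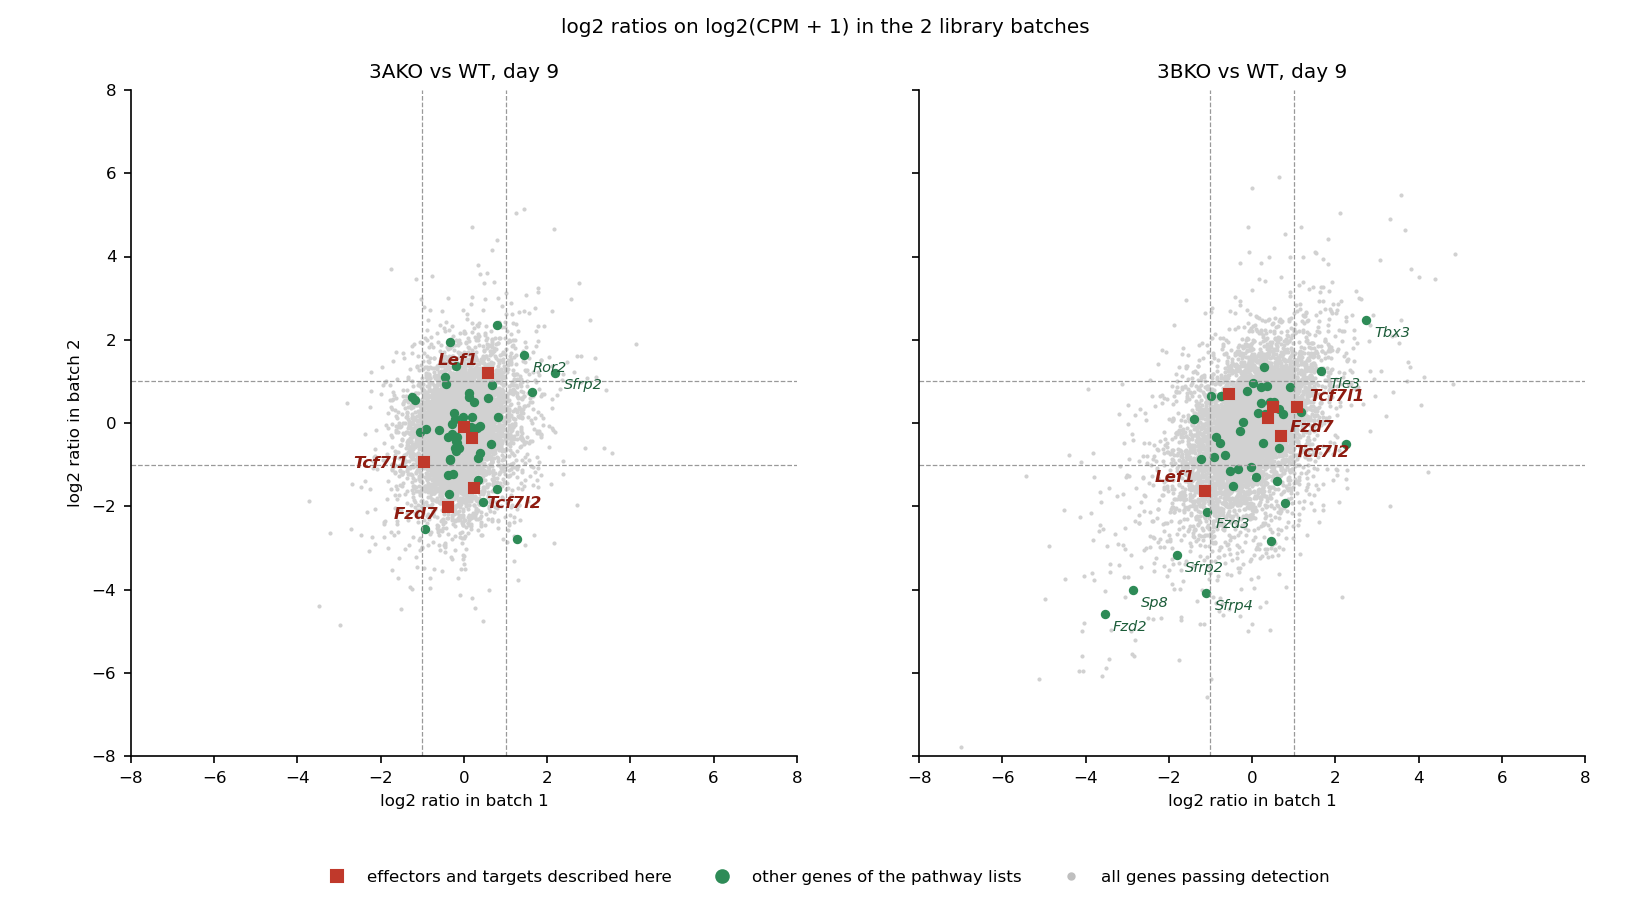
Log2 ratio on log2(CPM + 1) in batch 1 (horizontal) against batch 2 (vertical) for 3AKO (left) and 3BKO (right) against WT at day 9, with grey points for all genes passing detection, green circles for other genes of the pathway lists, red squares for the effectors and targets described here and dashed lines at 2-fold. In 3BKO, Lef1 lies in the lower left corner region with Fzd2, Fzd3, Sfrp2, Sfrp4 and Sp8, and Tbx3 and Tle3 lie in the upper right one.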

How the data were processed

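Single cells were sorted 1 to a well and processed with Smart-seq2, so no doublet caller was run. The authors trimmed reads with Trim Galore 0.5.0, aligned them to GRCm38 with STAR 2.7.1a and counted them per gene name with featureCounts 1.6.1 (versions per the submitters' processing notes), and deposited raw read counts with no normalization. Libraries were made with Nextera XT, which does not mark the strand. The table's 26 columns of no sample were not used. The study gives differing numbers of cells, and the number that its stated filter (50000 reads, 2000 genes, 50% mitochondrial) keeps here is slightly below the smallest of them.

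Groups, days, batches and plates came from the labels. Counts were summed over kept cells per group and library, scaled to CPM, and compared as log2(CPM + 1), with Python 3.11.15, numpy 2.4.6, scipy 1.17.1 and pandas 2.3.3. With 1 sample a group no test was run, and the script for the 2-fold rule was tested on simulated data. Levels carry exact Poisson and shares exact binomial 95% intervals, and intervals for share differences were built from the bounds of the shares compared. For shares, each cell was thinned to 50000 reads, and a count of 0 allows up to 3. Promoters came from RefSeq (GRCm38.p6) and positions and exon lengths from GENCODE vM21 (GRCm38), which may differ from the annotation used in counting. Alternatives were other cell filters, the batches taken separately, averages of single-cell CPM, thinning before summing, leaving out the cell with most reads, mitochondrial genes and Gm42418 taken out of the totals, TMM (edgeR 4.0.16) and median-ratio factors (DESeq2 1.42.0, R 4.3.3), pseudocounts of 0.1 and 10 CPM, detection in 10%, 40% or no share of cells, and day 3 mutants by plate.

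Named genes were the 10 members, in each pathway list the most abundant gene and at most 3 past the rule by size, Dnmt3a, Dnmt3b, the cell type markers, and the 3 genes most like each member. Fst and Znrf3 were named by this rule from the comparison of the mutants, and 1 further gene past the rule is not reported here. The members and lists were chosen with earlier results of these data known.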

Additional observations from a re-analysis of the deposited data

Results flagged for a closer look

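At day 9, Lef1 and Tcf7l1 each lay on different sides of WT in 3AKO and 3BKO in both batches, and were more than 2-fold apart between the mutants in both. The log2 ratio of 3BKO to 3AKO was -2.16 for Lef1, which was above WT in 3AKO (0.57 and 1.19 by batch) and below it in 3BKO (-1.13 and -1.62). It was 1.69 for Tcf7l1, which was below WT in 3AKO (-0.97 and -0.94) and above it in 3BKO (1.07 and 0.37). With 1 sample a group, neither difference was tested, and both comparisons with WT share the WT cells.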

How the results depend on the processing

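The number of the 10 genes past the 2-fold rule is small, so that 1 gene moves it, and the share over all genes moves with the setting too. That share, 1.08% to 12.4% over the 8 comparisons as reported, was 6.04% to 25.8% in batch 1 alone, 18.8% to 35.7% in batch 2 alone, 0.0488% to 5.64% with a pseudocount of 10 CPM and 0.541% to 3.83% with no detection limit. For 3AKO against WT at day 9 (0 genes) it was 3 in batch 2 alone, and 1 without the cell with most reads, with a pseudocount of 0.1 CPM and with no detection limit. For 3BKO against WT (1) it was 0 under the stricter cell filter, thinning, a pseudocount of 10 CPM and detection in 40% of cells, and 2 in batch 1 alone. For 3BKO against 3AKO (2) it was 5 in batch 2 alone, 1 with a pseudocount of 10 CPM, 4 with no detection limit, and 3 with thinning (Fzd7 added) and with detection in 10% of cells (Nkd1 added). For WT between days (1) it was 2 in batch 1, 3 in batch 2, and 0 with thinning, a pseudocount of 10 CPM and detection in 40% of cells. By day 3 labels, 3AKO against WT (0) gave 1 in batch 1, 2 in batch 2 and 1 by plate, and 3BKO against WT (0) gave 1 in batch 2. Between days, 3AKO (1) gave 3 in batch 1, 2 in batch 2, 0 with a pseudocount of 10 CPM, 2 with detection in 10% of cells, 3 with no detection limit and 2 by plate. For 3BKO between days (1) the count was 0 with no cell filter, with thinning, with a pseudocount of 10 CPM and with detection in 40% of cells, 2 under the stricter filter, in batch 1, without the top cell and by plate, and 3 in batch 2. The median share of cells with a read over genes and groups, 19.03%, was 9.55% when 2 reads were required and 30.5% with no thinning. Of 1240 log2 ratios of members under alternatives, 1002 stayed within counting error of the reported value, and 90, belonging to 36 of 80 ratios, had the other sign. The settings that change only the detection limit leave every ratio as it is. Their values are among the 1002 by construction and could not change sign, here or in the next count. Of the 92 that belong to the 6 ratios past the rule, 1 had the other sign, that of Tcf7l2 in 3BKO between days, at -0.23 with no cell filter. The causes were not tested. Each batch alone takes the place of leaving out a replicate. No paired analysis was possible because no test was run with 1 sample a group and the labels give no replicate numbers, and the batches were instead compared 1 by 1. Depth limits the target and feedback genes most, of which Dkk1 was read in 11 of 486 cells.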

Other observations

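Over the 12 libraries, the genes whose log2(CPM + 1) followed a member most closely were listed among 8785 genes read in at least 20% of cells, as a description over libraries that share cells' genotype, day and batch. For Lef1 these were Poldip2, Eno1 and Coasy (Pearson's r of 0.95 each). For Tcf7l1 they were Ddhd2 and Rabgap1 (0.92 each) and Sfrp1 (0.89), a secreted inhibitor of the pathway lists. For Tcf7l2 they were S100a6 and Cmtm7 (0.95 each) and Eif1ad (0.91). For Ctnnb1 they were Hsp90aa1 (0.92), Ankrd13c and Gab1 (0.91 each), for Tcf7 Tmed7 (0.89), Herc1 (0.80) and Ctr9 (0.79), and for Fzd7 Ddx46 and Tsr1 (0.86 each) and Wnk1 (0.83).

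At day 3, 2 WT cells were ME positive and both held a read of a target or feedback gene, against 23 of the other 77 cells. By label, such a read was found in 0 of 2 ME positive 3AKO cells and 1 of 2 ME positive 3BKO cells. Among the remaining cells it was found in 17 labelled 3AKO and 20 labelled 3BKO.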
